A study of Mus musculus with 11 samples.

Results

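CD4+ T cells isolated from mouse kidneys were compared between 3 CD4NIK and 3 CD4cre libraries, which made up 6 of the 11 RNA-sequencing libraries of the study. The members were taken from the sample titles, and the remaining 5 libraries (CD4IKK1) were not part of the comparison. All mice were adult males on the C57BL/6 background, and all had undergone kidney ischaemia-reperfusion injury (IRI), in which the blood supply of the kidney is clamped and released. Tissue was taken on day 2 after IRI. CD4NIK mice carried a floxed Map3k14 gene, which encodes NFkB-inducing kinase (NIK), together with Cre recombinase driven by the CD4 promoter. The control libraries are titled as CD4cre, so that both genotypes carried the same Cre, while their genotype field reads wild type. Because the CD4 promoter is active in thymocytes before the CD4 and CD8 lineages part, the deletion in this model is not confined to CD4+ cells, although CD4+ cells were sorted here. The groups are named below as the libraries were labelled.

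NIK stands at the head of the non-canonical NFkB pathway. Receptors of the TNF receptor family, such as OX40, CD40 and the lymphotoxin beta receptor, release NIK from a complex of TRAF2, TRAF3 and the cIAP proteins, in which it is otherwise degraded. NIK then phosphorylates IKK1 (Chuk), and IKK1 drives the processing of the p100 protein (Nfkb2) to p52, which enters the nucleus with RelB. In CD4+ T cells the pathway acts downstream of costimulatory receptors during effector and memory differentiation. Activated helper T cells of the Th1 type are known by the transcription factor T-bet (Tbx21), the cytokine interferon gamma (Ifng) and the chemokine receptor CXCR3.

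Each library held 15751632 to 25737046 estimated reads on genes, and 15209 of 35814 gene symbols passed the filter on low counts. Levels are given as CPM, the counts of a gene scaled to a common library total, after scaling by trimmed mean of M values (TMM). A gene was called higher or lower in CD4NIK when edgeR's quasi-likelihood test with Benjamini-Hochberg adjustment gave an adjusted p under 0.05 and the fold change was over 2. The rank correlation of genes between libraries was 0.935 to 0.939 within CD4cre, 0.942 to 0.967 within CD4NIK and 0.825 to 0.919 between the groups. Fewer CD4+ T cells in a sample and less RNA per T cell cannot be told apart in such bulk libraries.

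The defining markers of CD4+ T cells were present in all 6 libraries, but they made up a small share of the reads, and that share differed between the groups. The summed counts of the T cell receptor (TCR) constant genes Trac, Trbc1 and Trbc2 were 1354, 1101 and 631 CPM in the CD4cre libraries and 3330, 5302 and 6262 CPM in the CD4NIK libraries. All CD4NIK libraries were above all CD4cre libraries. The means were 1029 ± 367 CPM (SD, n = 3) and 4965 ± 1495 CPM (SD, n = 3), a ratio of 4.83. A two-sided exact permutation test over the 6 libraries gave p = 0.1, which is the smallest value that 3 libraries against 3 allow. These genes lie on chromosome 14 (Trac, 54457978 to 54461663) and chromosome 6 (Trbc1, 41515152 to 41516815, and Trbc2, 41523664 to 41525286) of GRCm39, on the plus strand. The summed CD3 chains were close to constant relative to the TCR constant genes. The CD3 chains Cd3d, Cd3e and Cd3g, which carry the signal of the receptor into the cell, together gave 229, 227 and 245 counts per 1000 TCR constant counts in CD4cre and 233, 236 and 234 in CD4NIK. A list of 14 pan T cell markers summed to 1265, 1359 and 1828 per 1000 in CD4cre and to 1465, 979 and 857 in CD4NIK, with 4 of the 14 called lower on that scale, beside 68.7% of all genes.

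**Figure D1:**
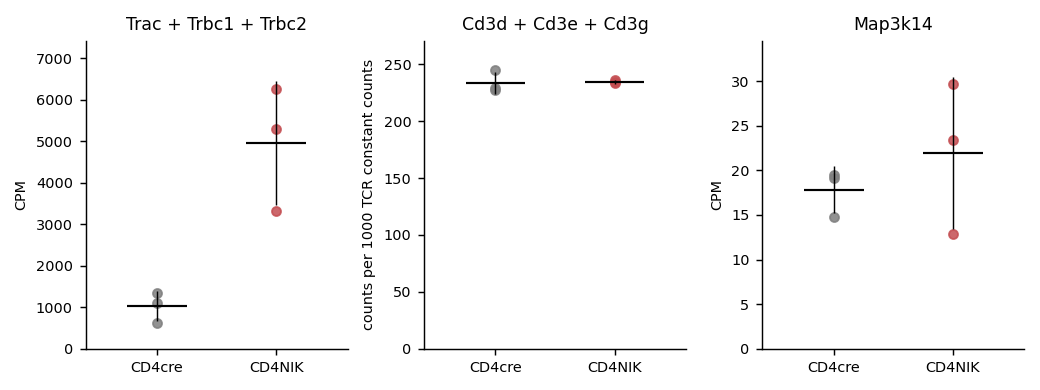
Summed TCR constant genes in CPM (left), summed CD3 chains in counts per 1000 TCR constant counts (middle) and Map3k14 in CPM (right). Each point is a library, the horizontal bar is the mean and the vertical bar the SD of 3 libraries. The CD4NIK libraries hold 3330 to 6262 CPM of TCR constant counts against 631 to 1354 CPM in CD4cre, while the CD3 chains lie between 227 and 245 per 1000 TCR constant counts in all 6 libraries.

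The libraries also held transcripts that are not known from T cells. A list of 33 neuronal and synaptic genes summed to 11707, 13318 and 14408 CPM in CD4cre and to 8441, 5084 and 4168 CPM in CD4NIK, which in every CD4cre library was above the TCR constant sum. The neuronal markers Snap25, Syt1, Stmn2 and Rbfox3 were all called lower in CD4NIK and summed to 1152 to 1345 CPM in CD4cre and 390 to 779 CPM in CD4NIK. Macrophage markers summed to 422 to 1627 CPM in CD4cre and 525 to 809 CPM in CD4NIK, with 0 of 6 tested markers called in either direction by edgeR's quasi-likelihood test and 0 at an unadjusted p under 0.05. The hemoglobin genes and Alas2, which mark red cells, ranged from 2043 to 2668 CPM and from 1181 to 8039 CPM. Since the reads of a library were shared between T cells and these other transcripts, each change was also expressed relative to the TCR constant counts of its own library. On that scale a level is a number of counts per 1000 TCR constant counts, and the test used the summed Trac, Trbc1 and Trbc2 counts as the library size. Both scales rest on the same 6 libraries and are not independent of each other.

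The targeted gene was measured first. Map3k14 (chromosome 11, 103110577 to 103158298, minus strand, GRCm39) stood at 19.1, 19.5 and 14.8 CPM in CD4cre and at 12.8, 29.7 and 23.4 CPM in CD4NIK. The groups overlapped, and the log2 fold change of 0.30 (SE 0.36, adjusted p = 0.575) did not pass the test. Per 1000 TCR constant counts the level of Map3k14 was 14.1, 17.7 and 23.4 in CD4cre and 3.86, 5.61 and 3.73 in CD4NIK, so that all CD4NIK libraries were below all CD4cre libraries. On this scale the gene was called lower, with a log2 fold change of -2.06 (SE 0.59, adjusted p = 0.00433), and it was called so in all 6 fits that left out a library. The same scale called 68.7% of all genes lower, at a median log2 fold change of -2.33. A count over the whole gene also includes the exons outside a deleted part, and which exons the floxed allele removes was not used here. The level of Map3k14 therefore does not by itself check the genotype labels.

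Across the transcriptome, 1586 genes were higher and 1063 genes lower in CD4NIK on the CPM scale, 10.4% and 6.99% of the genes tested. The median log2 fold change of all genes was -0.02. Relative to TCR constant counts, 84 genes (0.552%) were higher and 10443 genes (68.7%) lower. All 84 were also called higher on the CPM scale, and all 1063 genes called lower on the CPM scale were called lower again. Of the 1586 genes higher on the CPM scale, 1444 were not called on the relative scale and 58 were called lower. Every fold change on the relative scale carries the spread of the TCR constant counts themselves.

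**Figure D2:**
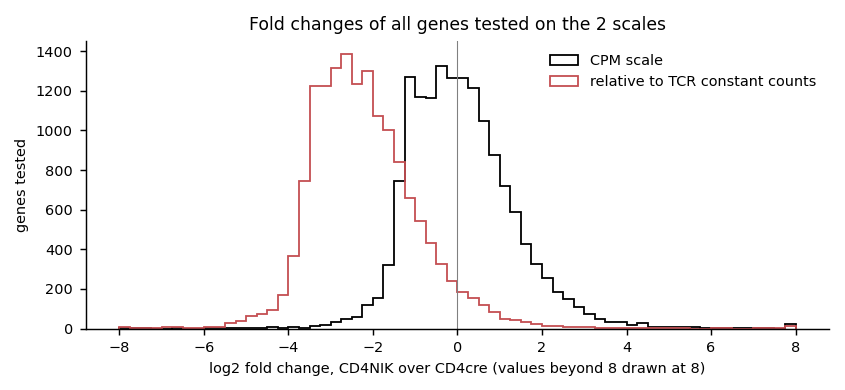
Number of genes by log2 fold change of CD4NIK over CD4cre on the CPM scale (black) and relative to TCR constant counts (red), for the 15209 genes tested. The CPM distribution centres on -0.02 and the relative distribution on -2.33, with 792 genes above 0 on the relative scale.

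The count of lower genes on the CPM scale rested on single libraries more than the count of higher genes. Without CD4cre replicate 1, 2 or 3 there were 786, 117 and 79 lower genes, and without CD4NIK replicate 1, 2 or 3 there were 1773, 66 and 60. The number of higher genes was 1703, 884, 780, 1695, 852 and 614 in the same order. With upper-quartile factors in place of TMM, which moved the median log2 fold change of all genes to -0.16, 44.9% of the calls were in the higher direction, against 59.9% with TMM. Library size alone gave 49.0% and a median of -0.15.

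Genes were then read by family, from 66 lists. The shares over all genes are the background for the counts of each list, namely 10.4% higher and 6.99% lower on the CPM scale and 0.552% higher and 68.7% lower on the relative scale. The lists and the genes in them were chosen with earlier results of these data known, so that their counts describe the comparison and test nothing. Among the lists with at least 5 tested members, the highest medians on the CPM scale were those of the interferon-gamma-induced GTPases and the inhibitory receptors, and the lists of neuronal, astrocyte and podocyte genes were lowest. Relative to TCR constant counts, the median was above 0 in 6 of the 66 lists. These were the interferon-gamma-induced GTPases (0.89), the inhibitory and nectin-family receptors (0.47), the TCR V segments (0.42), the CD3 and TCR complex (0.24), the Th1 genes (0.12) and the GIMAP GTPases (0.09).

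**Figure D3:**
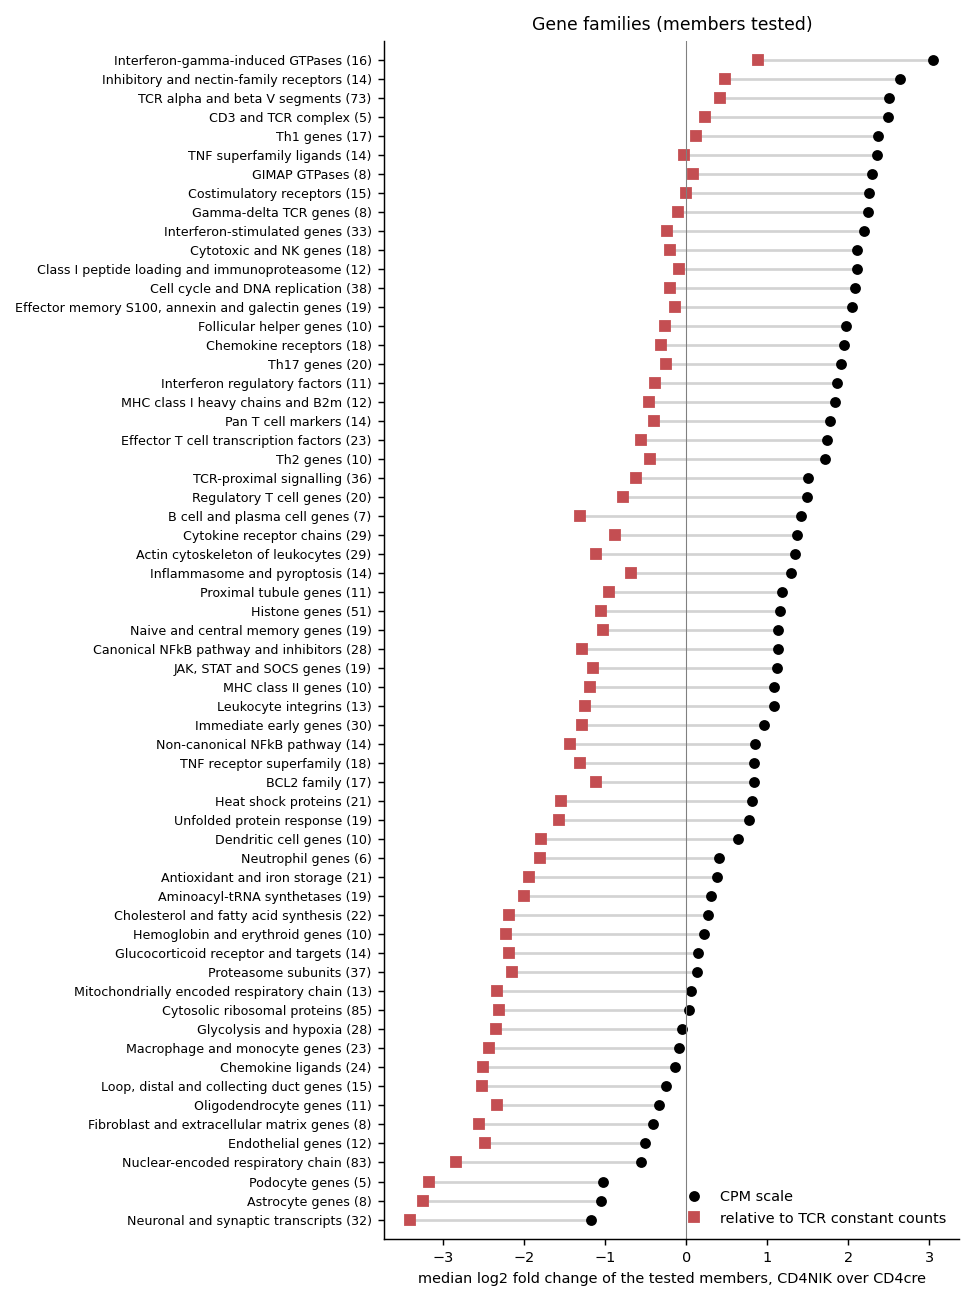
Median log2 fold change, CD4NIK over CD4cre, of the tested members of each list on the CPM scale (black circles) and relative to TCR constant counts (red squares), with the number of tested members in brackets. The 62 lists with at least 5 tested members are shown. The interferon-gamma-induced GTPases lie highest on both scales (3.05 and 0.89), and the neuronal transcripts lie lowest on both (-1.17 and -3.41).

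In the list of the CD3 and TCR complex, 4 of 5 tested genes were higher on the CPM scale and 0 were called on the relative scale, at medians of 2.49 and 0.24. Cd4, the coreceptor that defines these cells, stood at 77.1, 50.9 and 57.5 CPM in CD4cre and at 366, 369 and 310.0 CPM in CD4NIK (log2 fold change 2.49, SE 0.22, adjusted p = 0.0017). Per 1000 TCR constant counts Cd4 was 57.0, 46.2 and 91.2 against 109.9, 69.6 and 49.5, and the groups overlapped. Cd3e gave 121, 72.1 and 46.6 CPM against 417, 562 and 889.9 CPM, a log2 fold change of 2.96 (SE 0.41), and Cd3d gave 189, 177 and 106 CPM against 358, 676 and 564 CPM, a log2 fold change of 1.76 (SE 0.30). Relative to TCR constant counts all CD4NIK libraries were above CD4cre for Cd3e (89.4, 65.4 and 73.9 against 125, 106 and 142) and below it for Cd3d (139, 161 and 169 against 107, 127 and 90.1), and neither passed the test. Among all genes, 1.16% had all CD4NIK libraries above CD4cre on this scale and 72.7% all below.

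The kinase Lck, which phosphorylates the CD3 chains, rose from 205, 299.6 and 151 CPM to 1529, 1162 and 1182 CPM (log2 fold change 2.56, SE 0.28, adjusted p = 0.00256). The adaptor Lat rose from 332, 249.6 and 223 CPM to 954, 1035 and 929 CPM (1.86, SE 0.21). In the list of proximal TCR signalling, 24 of 36 tested genes were higher on the CPM scale and 0 lower, and on the relative scale 2 were higher and 11 lower, beside 0.552% and 68.7% of all genes. Of 165 V segments of the alpha and beta chains, 73 passed the filter on low counts, 27 of these were higher and 0 lower, at a median of 2.50. Trbv2 stood at 3.59, 3.34 and 1.51 CPM against 44.1, 20.8 and 16.5 CPM, and Trbv13-2 at 5.86, 4.99 and 1.46 CPM against 9.08, 41.0 and 37.6 CPM, and the call of Trbv13-2 was lost without replicate 2 or 3 of either group. Trav11, a V segment of the alpha chain, differed between single libraries more than between the groups, with 13.7, 27.0 and 6.73 CPM in CD4cre and 0.388, 71.8 and 39.7 CPM in CD4NIK. V segments share sequence, and the counting could split reads between them, so values for single segments are uncertain.

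Of 14 tested members of the non-canonical NFkB pathway, in which NIK acts, 4 were higher on the CPM scale and 0 lower, at a median of 0.85, beside 10.4% higher among all genes. Relative to TCR constant counts 8 were lower and 0 higher, at a median of -1.44, beside 68.7% lower among all genes and a median of -2.33. Among the receptors, Tnfrsf4, which encodes OX40, rose from 123, 166 and 123 CPM to 399.9, 657 and 443 CPM (log2 fold change 1.86, SE 0.25, adjusted p = 0.00461). Ltbr, the lymphotoxin beta receptor, stood at 4.20, 2.18 and 1.91 CPM against 3.10, 1.04 and 0.971 CPM and was called only per TCR constant count, where it was lower (log2 fold change -2.66, SE 0.99, adjusted p = 0.0218), a call lost without CD4NIK replicate 2 or 3. The remaining receptors, Cd40, Tnfrsf12a and Tnfrsf11a, were at no more than 10.1 CPM in any library and were not called on the CPM scale. Tnfrsf12a and Tnfrsf11a were lower per TCR constant count (-2.26, SE 0.81, adjusted p = 0.0179 and -2.32, SE 0.83, adjusted p = 0.0182), and each lost its call in 3 of 6 fits that left out a library, both without CD4NIK replicate 2 or 3, and Tnfrsf12a without CD4cre replicate 1 and Tnfrsf11a without CD4cre replicate 3.

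Of the complex that holds NIK, Traf2 was higher, with 32.4, 29.9 and 20.5 CPM in CD4cre and 102, 84.1 and 104 CPM in CD4NIK (log2 fold change 1.81, SE 0.24, adjusted p = 0.00468). Traf3 gave 18.2, 7.60 and 5.53 CPM against 18.4, 26.3 and 31.1 CPM (1.27, SE 0.48, adjusted p = 0.0886 by edgeR's quasi-likelihood test), while DESeq2 gave 1.31 with an adjusted p of 0.0276 and 1 of 6 fits that left out a library called Traf3. The cIAP genes Birc2 and Birc3 had log2 fold changes of 0.83 (SE 0.25) and 0.55 (SE 0.56) and were not called on the CPM scale. Both were lower per TCR constant count (-1.33, SE 0.54, adjusted p = 0.0327 for Birc2 and -1.73, SE 0.65, adjusted p = 0.0223 for Birc3), and each of these calls was lost in 4 of 6 fits that left out a library, for Birc2 those without replicate 2 or 3 of either group and for Birc3 those without CD4cre replicate 1 or any CD4NIK replicate. Tank, which binds TRAF proteins, had the smallest p of the list, with 26.5, 33.7 and 18.9 CPM against 193, 145 and 230.3 CPM (2.85, SE 0.29, adjusted p = 0.0023). The IKK1 gene Chuk stood at 16.3, 33.1 and 16.3 CPM against 23.2, 38.3 and 36.7 CPM, overlapped between the groups and was not called on the CPM scale. Chuk was lower per TCR constant count (12.1, 30.0 and 25.9 against 6.97, 7.23 and 5.87 per 1000, log2 fold change -1.76, SE 0.58, adjusted p = 0.0109), a call lost without CD4cre replicate 2. On this scale 68.7% of all genes were lower, and the median log2 fold change of -2.33 was a larger fall than that of Birc2, Birc3 or Chuk.

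Of the subunits that the pathway delivers, Relb rose from 20.9, 12 and 36.0 CPM to 89.0, 123 and 121 CPM (log2 fold change 2.27, SE 0.39, adjusted p = 0.0098). Nfkb2, which encodes p100 and p52, stood at 78.3, 88.9 and 84.2 CPM against 89.5, 221 and 156 CPM, so that all CD4NIK libraries were above CD4cre, but its log2 fold change of 0.89 (SE 0.31, adjusted p = 0.0691) did not pass. Per TCR constant count Relb did not differ beyond its spread (15.4, 10.9 and 57.1 against 26.7, 23.2 and 19.3 per 1000), and the sign of its relative fold change turned under 3 of the alternatives. Nfkb2 was lower on that scale (57.8, 80.7 and 133 against 26.9, 41.7 and 24.9 per 1000, log2 fold change -1.54, SE 0.55, adjusted p = 0.0173), and this call was lost without CD4cre replicate 3 or CD4NIK replicate 3. Among all genes 68.7% were lower per TCR constant count, at a median of -2.33. Transcript levels do not show the processing of p100 or the amount of NIK protein.

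Of 28 tested genes of the canonical NFkB pathway and its inhibitors, 13 were higher on the CPM scale and 1 lower, and 12 were lower on the relative scale, at medians of 1.13 and -1.28, beside 68.7% lower among all genes on the relative scale and a median of -2.33. The ubiquitin-editing inhibitor Tnfaip3 rose from 101, 87.6 and 101 CPM to 305, 298 and 326 CPM (log2 fold change 1.68, SE 0.17). The inhibitor Nfkbie rose from 29.4, 24.6 and 29.8 CPM to 70.8, 106 and 91.5 CPM, and the subunit Rela from 60.3, 49.7 and 39 CPM to 134, 138 and 151 CPM. Per TCR constant count all CD4NIK libraries were below all CD4cre libraries for Nfkbie and Rela, as for 72.7% of all genes, and neither passed the test. Nfkbia, the inhibitor IkB alpha, was the most abundant of the list, with 2115, 1659 and 1275 CPM against 2026, 4314 and 3513 CPM, and was not called on the CPM scale. The level of Nfkbia was lower per TCR constant count (-1.36, SE 0.54, adjusted p = 0.0303), a call lost without CD4cre replicate 2 or CD4NIK replicate 2 or 3.

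Of 17 tested Th1 genes, 11 were higher and 0 lower on the CPM scale, at a median of 2.37, and on the relative scale 2 were higher (Cxcr3 and Cxcr6) and 3 lower, at a median of 0.12. Tbx21 (T-bet) rose from 32.4, 51.0 and 28.1 CPM to 140.1, 213 and 224 CPM (log2 fold change 2.37, SE 0.30, adjusted p = 0.00401). Ifng (chromosome 10, 118276951 to 118281797, plus strand, GRCm39) rose from 357, 134 and 110.0 CPM to 880.4, 742 and 1049.7 CPM (2.15, SE 0.43, adjusted p = 0.0165), and this call was lost without CD4cre replicate 2 or 3 or without CD4NIK replicate 3, with log2 fold changes of 1.88 to 2.87 over the 6 fits that left out a library. Per 1000 TCR constant counts Tbx21 stood at 23.9, 46.3 and 44.6 against 42.1, 40.3 and 35.7, and Ifng at 264, 122 and 174 against 264, 140.0 and 168. The relative log2 fold changes were 0.04 (SE 0.52) for Tbx21 and 0.03 (SE 0.55) for Ifng, and both overlapped between the groups. Their signs turned when single libraries were left out.

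Cxcr3, the receptor for the interferon-induced chemokines CXCL9 and CXCL10, rose from 81.7, 53.7 and 25.9 CPM to 428, 600.4 and 670.4 CPM (log2 fold change 3.40, SE 0.41, adjusted p = 0.00357). Per TCR constant count all CD4NIK libraries were above CD4cre (60.3, 48.8 and 41.1 against 129, 113 and 107 per 1000, log2 fold change 1.22, SE 0.52, adjusted p = 0.0431). Cxcr6, a receptor of tissue-resident T cells that stands on the Th1 and the Th17 list, rose from 83.5, 129.6 and 29.8 CPM to 1097, 699.6 and 1379 CPM (3.71, SE 0.53). Its relative level was 61.7, 118 and 47.2 against 329, 132 and 220.1 per 1000 (1.59, SE 0.58, adjusted p = 0.019). The relative call of Cxcr3 was lost in 5 of the 6 fits that left out a library, all but the one without CD4NIK replicate 1 (log2 fold changes 1.09 to 1.37), and that of Cxcr6 without CD4cre replicate 1 or 3 (1.22 to 2.06 over the 6 fits).

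**Figure D4:**
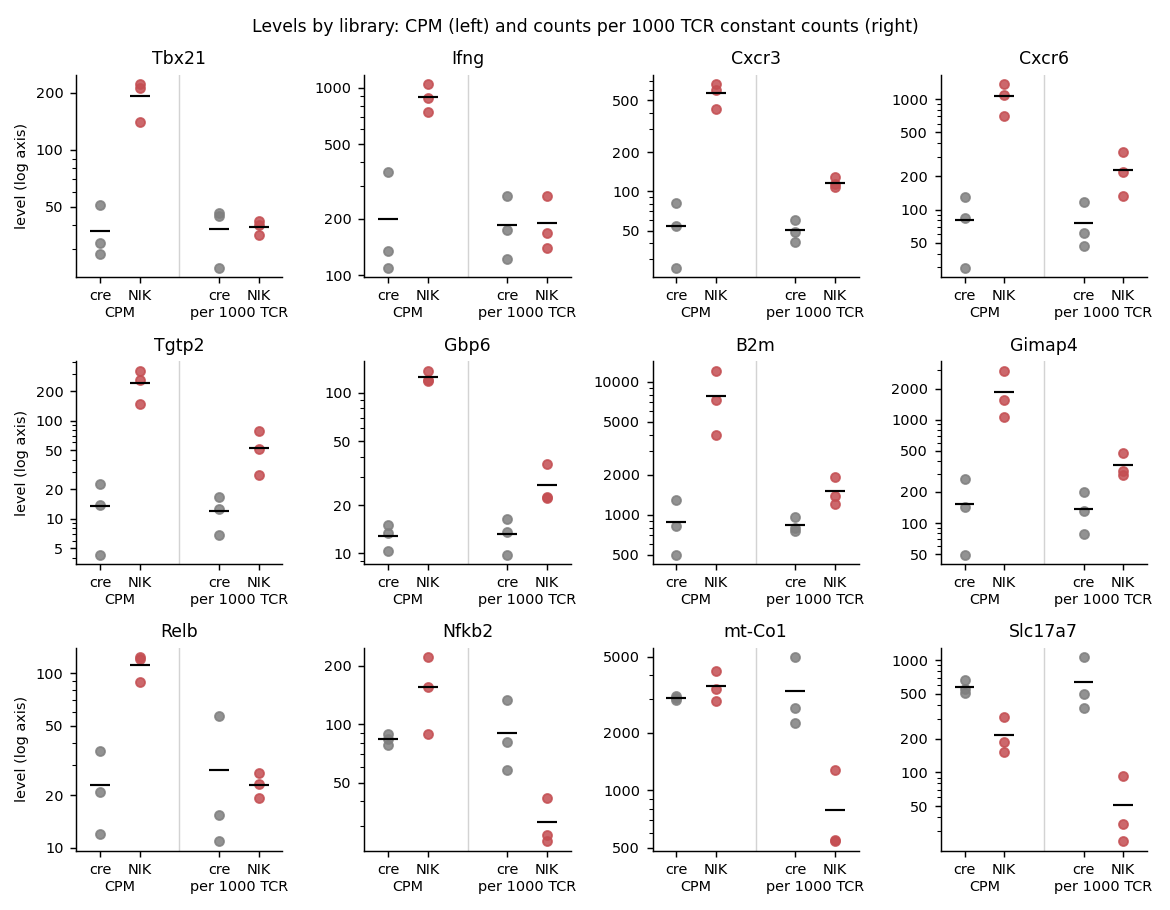
Levels of 12 genes in each library on a log axis, in CPM (left pair) and in counts per 1000 TCR constant counts (right pair). Each point is a library and each bar the mean of 3 libraries. Tbx21 and Ifng separate the groups in CPM and overlap per TCR constant count, Cxcr3, Cxcr6, Tgtp2 and Gimap4 separate them in the same direction on both scales, and Nfkb2 and mt-Co1 are lower in CD4NIK per TCR constant count. On that scale 68.7% of all genes were called lower.

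Irf9, a transcription factor of the interferon response, rose from 21.6, 14.8 and 9.75 CPM to 98.5, 122 and 138 CPM (log2 fold change 2.96, SE 0.32, adjusted p = 0.00255). Stat4, which carries the signal of interleukin 12, rose from 51.8, 25.3 and 16.4 CPM to 193, 158 and 234 CPM. Il27ra, a chain of the interleukin 27 receptor, rose from 18.2, 24.4 and 14.1 CPM to 132, 329.9 and 262 CPM (3.68, SE 0.38). Of these genes Il27ra was also called on the relative scale (1.31, SE 0.53, adjusted p = 0.033), a call that was lost without CD4cre replicate 1 or 2 or CD4NIK replicate 2 or 3.

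Of the 16 interferon-gamma-induced GTPases, which attack the vacuoles of intracellular pathogens, all were tested and 14 were higher on the CPM scale, at a median log2 fold change of 3.05. Relative to TCR constant counts 5 were higher and 0 lower, beside 0.552% and 68.7% of all genes. The list summed to 309, 189 and 127 CPM in CD4cre and to 1653, 1252 and 2106 CPM in CD4NIK. Gbp6 and Gbp4 had the smallest p of the list. Gbp6 rose from 13.3, 14.9 and 10.3 CPM to 119.5, 119 and 138 CPM (log2 fold change 3.29, SE 0.23, adjusted p = 0.0015), and Gbp4 from 29.8, 19.2 and 14.2 CPM to 198, 166 and 199 CPM (3.16, SE 0.30). Ifi47, the most abundant, rose from 84.3, 45.4 and 28.2 CPM to 341, 325 and 569.9 CPM. Some members of this list are close copies of each other, Tgtp1 and Tgtp2 above all, and the counting could split their reads.

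The 5 members called on both scales were Tgtp1, Tgtp2, Gbp3, Gbp7 and Gbp10. Tgtp2 (chromosome 11, 48948021 to 48955033, minus strand, GRCm39) stood at 22.3, 13.8 and 4.32 CPM against 261, 147 and 323 CPM, and at 16.5, 12.6 and 6.85 against 78.3, 27.7 and 51.6 per 1000 TCR constant counts. Its log2 fold changes were 4.17 (SE 0.59, adjusted p = 0.00528) and 2.13 (SE 0.58, adjusted p = 0.00321). Tgtp1 stood at 13.9, 7.51 and 11.2 CPM against 149, 88.9 and 233 CPM, with a relative log2 fold change of 1.51 (SE 0.58, adjusted p = 0.0256). The other three, Gbp3, Gbp7 and Gbp10, were named after their values had been seen. Gbp3 gave 2.76, 0 and 0.804 CPM against 42.8, 34.4 and 44.4 CPM, Gbp7 gave 0.680, 4.41 and 5.58 CPM against 82.6, 41.0 and 78.3 CPM, and Gbp10 gave 0, 0.726 and 0 CPM against 8.25, 15.1 and 15.7 CPM. Their relative log2 fold changes were 2.98 (SE 0.98), 1.77 (SE 0.78) and 3.52 (SE 1.25). Over the 6 fits that left out a library these ran from 2.40 to 3.88 for Gbp3, from 1.2 to 2.75 for Gbp7 and from 2.89 to 10.3 for Gbp10, where the highest was fitted without CD4cre replicate 2, against libraries at 0, and is no measure of size. The relative call was made in all 6 fits that left out a library for Tgtp2 and Gbp3. It was lost for Gbp7 without CD4cre replicate 1 or 2 or CD4NIK replicate 1, for Gbp10 without CD4cre replicate 3, and for Tgtp1 without CD4cre replicate 1 or 2 or CD4NIK replicate 1 or 3. On the CPM scale Gbp3 and Gbp10 lost their calls without CD4cre replicate 3 or CD4NIK replicate 2 or 3. Gbp10, at 0 CPM in CD4cre replicates 1 and 3, passed the filter on low counts through the CD4NIK libraries, and its calls are given as a description.

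The DNA in front of these genes is shown because interferons act on such genes through known elements there. RefSeq promoters (GRCm38.p6) were matched by symbol for 11453 of the 15209 genes tested, and for 10 of the 16 GTPases. In the 250 bases before each start, the interferon-stimulated response element GAAANNGAAA and the gamma-activated site TTCNNNGAA were searched on both strands, and overlapping matches were kept. The first was found in 9 of the 10 GTPases (90.0%) and in 3.27% of all matched genes, and the second in 6 of 10 (60.0%) and in 7.40%. Among matched genes higher on the CPM scale the shares were 5.69% and 9.36% of 1196 genes, among those higher on both scales, 4 GTPases included, 12.9% and 14.5% of 62 genes, and among those lower on the CPM scale 2.78% and 7.71% of 791 genes. The NFkB consensus was found in 1 of the 10 GTPases, 7.19% of the 1196 genes higher on the CPM scale, 1.61% of the 62 genes higher on both scales, 7.33% of the 791 lower genes and 5.44% of all. The GTPase list was chosen as interferon-induced, so its shares describe that choice and test nothing. A match is a description of the letters and does not show binding. Of the 5 GTPases called on both scales, 4 had a RefSeq promoter. Gbp3 had 2 starts, and the one printed was picked by how many kinds of motif matched, and by position where equal. They are printed 5′ to 3′ on the strand of the gene with matches to either element in capitals. They lie at chr11:49064213-49064462 (Tgtp2, minus), chr11:48992247-48992496 (Tgtp1, minus), chr3:142559794-142560043 (Gbp3, plus) and chr3:142530086-142530335 (Gbp7, plus).
Tgtp2: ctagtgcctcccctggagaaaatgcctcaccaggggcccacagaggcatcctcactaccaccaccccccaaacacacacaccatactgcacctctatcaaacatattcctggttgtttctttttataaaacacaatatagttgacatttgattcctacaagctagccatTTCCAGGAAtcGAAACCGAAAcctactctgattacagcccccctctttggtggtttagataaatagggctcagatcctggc
Tgtp1: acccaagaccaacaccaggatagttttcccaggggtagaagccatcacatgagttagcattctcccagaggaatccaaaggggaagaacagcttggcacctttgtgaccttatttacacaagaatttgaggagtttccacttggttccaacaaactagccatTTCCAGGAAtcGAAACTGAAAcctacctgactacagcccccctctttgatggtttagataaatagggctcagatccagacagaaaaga
Gbp3: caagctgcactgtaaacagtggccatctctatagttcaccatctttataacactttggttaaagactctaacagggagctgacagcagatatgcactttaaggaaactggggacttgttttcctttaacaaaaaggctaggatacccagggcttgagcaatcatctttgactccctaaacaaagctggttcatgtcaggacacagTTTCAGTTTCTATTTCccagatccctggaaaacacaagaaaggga
Gbp7: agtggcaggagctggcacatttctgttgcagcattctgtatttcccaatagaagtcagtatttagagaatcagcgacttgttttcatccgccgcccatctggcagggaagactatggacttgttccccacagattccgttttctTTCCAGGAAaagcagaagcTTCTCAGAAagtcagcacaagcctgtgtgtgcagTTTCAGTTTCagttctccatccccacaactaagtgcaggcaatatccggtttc
In Tgtp2 and Tgtp1 the gamma-activated site starts 81 and 88 bases before the gene's start and is followed at 70 and 77 bases by the response element. Gbp7 holds 2 gamma-activated sites, at 106 and 87 bases, and the response element at 53 bases. Gbp3 holds 2 overlapping matches of the response element at 45 and 39 bases and no gamma-activated site in this window.

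The wider list of interferon-stimulated genes had 19 of 33 tested genes higher and 0 lower on the CPM scale, at a median of 2.20, and 2 higher and 2 lower on the relative scale. Rtp4, a chaperone of G protein-coupled receptors that interferons induce, rose from 14.1, 6.49 and 2.71 CPM to 74.5, 119.8 and 165 CPM (log2 fold change 3.94, SE 0.59, adjusted p = 0.00682). It was also called on the relative scale (1.78, SE 0.58, adjusted p = 0.00969), with all CD4NIK libraries between 22.4 and 26.4 per 1000 against 4.30 to 10.4 per 1000 in CD4cre. Oas1a, which makes the activator of RNase L, rose from 8.01, 6.00 and 4.17 CPM to 34.8, 65.2 and 43.7 CPM and was not called relative to TCR constant counts.

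MHC class I molecules present peptides from within the cell and are made by most cells. Of 12 tested heavy chains and partners, 11 were higher, at a median of 1.83, and of 12 genes of peptide loading and the immunoproteasome, 11 were higher, at a median of 2.11. No gene was lower in either list. Of the first list 0 genes were called per TCR constant count and 1 was lower in the second, beside 68.7% lower among all genes. B2m, the light chain shared by class I molecules, rose from 1300.2, 829 and 503 CPM to 4013, 7350.3 and 12162 CPM (log2 fold change 3.16, SE 0.49, adjusted p = 0.00733). H2-D1 rose from 2876, 2115 and 1572 CPM to 6052, 8286 and 7993 CPM, the peptide transporter Tap2 from 92.1, 68.9 and 55.4 CPM to 374, 419 and 372 CPM, and the immunoproteasome subunit Psmb9 from 67.7, 82.9 and 46.4 CPM to 278, 526 and 401 CPM. Per TCR constant count B2m was higher and H2-D1 lower in every CD4NIK library, and neither passed the test. On that scale 1.16% of all genes had all CD4NIK libraries above CD4cre and 72.7% all below.

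Of 10 tested MHC class II genes, which antigen-presenting cells express, 3 were higher and 0 lower on the CPM scale, at a median of 1.09. On the relative scale 0 were higher and 1 was lower, at a median of -1.19, beside 68.7% lower among all genes and a median of -2.33. H2-Ab1 rose from 59.2, 49.8 and 57.8 CPM to 153, 265 and 89.2 CPM (log2 fold change 1.61, SE 0.36, adjusted p = 0.0224), and this call was lost without CD4cre replicate 2 or 3 or CD4NIK replicate 2 (1.13 to 1.94 over the 6 fits). The invariant chain Cd74 rose from 32.1, 7.21 and 16.1 CPM to 76.9, 138 and 60.8 CPM, a call lost in 4 of these 6 fits. The immunoglobulin heavy chain Ighm, on the list of B cell genes, rose from 96.8, 137 and 61.9 CPM to 191, 609 and 644 CPM, a call lost without CD4cre replicate 3 or CD4NIK replicate 2 or 3. Per TCR constant count Ighm was not called, with log2 fold changes of -0.29 to 0.15 over these fits. The B cell and plasma cell list, Ighm included, summed to 114, 153 and 81.6 CPM in CD4cre and 212, 661 and 671 CPM in CD4NIK. Of its 7 tested genes 1 was higher and 0 were lower, at a median of 1.42, and on the relative scale 0 were higher and 1 was lower. A set of 5 B cell markers summed to 1.99 to 5.78 CPM in CD4cre and 3.60 to 23.6 CPM in CD4NIK, and 0 of the 2 tested were called by edgeR's quasi-likelihood test, with 0 at an unadjusted p under 0.05. The part of B cells or macrophages in the class II values was not tested.

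Of 20 tested Th17 genes 11 were higher and 0 lower on the CPM scale, at a median of 1.91, and on the relative scale 2 were higher and 0 lower, at a median of -0.25. Il17a, the defining cytokine, stood at 25.1, 10.2 and 4.32 CPM against 12, 34.8 and 20 CPM, overlapped between the groups and was not called on the CPM scale (log2 fold change 0.75, SE 0.64, adjusted p = 0.426). Per TCR constant count all CD4NIK libraries were below all CD4cre libraries (18.6, 9.23 and 6.85 against 3.61, 6.57 and 3.19 per 1000), as for 72.7% of all genes, whose median was -2.33, and the log2 fold change of Il17a was -1.38 (SE 0.63, adjusted p = 0.0548), which did not pass and passed in 1 of 6 fits that left out a library and 3 of 8 other alternatives. Ccr6, a chemokine receptor of Th17 cells, was higher, with 2.99, 0.0484 and 1.46 CPM against 5.93, 20.4 and 34.0 CPM (3.73, SE 1.08, adjusted p = 0.0422), but lost its call in 4 of 6 fits that left out a library, all but those without replicate 1 of either group. Il23r, a chain of the interleukin 23 receptor, held at most 3 counts in any CD4cre library and 20.1, 3.18 and 4.78 CPM in CD4NIK, and was called on both scales. Its relative call was lost without CD4NIK replicate 1. Il23r, 1 of the 2 genes of the list higher on the relative scale, passed the filter on low counts through the CD4NIK libraries, in which it was high. The calls of Il23r are therefore given as a description. Markers of gamma-delta T cells, which also make interleukin 17, moved in the same direction, with a sum of 8.89 to 35.8 CPM in CD4cre and 51.2 to 186 CPM in CD4NIK. Trgc2 among them was higher (23.2, 13.8 and 4.17 CPM against 38.1, 83.5 and 100.3 CPM), a call lost without replicate 2 or 3 of either group. Their part in the Th17 values was not tested.

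Among 20 tested genes of regulatory T cells 11 were higher and 0 lower on the CPM scale, at a median of 1.50, and 1 was higher and 1 lower on the relative scale, at a median of -0.78. The lineage factor Foxp3, named here although it fell outside the rule for named genes, stood at 14.9, 8.76 and 10.8 CPM against 8.14, 49.9 and 41.9 CPM and was not called by edgeR's quasi-likelihood test (log2 fold change 1.53, SE 0.59, adjusted p = 0.0966), while DESeq2 gave 1.58 with an adjusted p of 0.0249, and 1 of 6 fits that left out a library called it. Il2ra (CD25) was higher, with 13.3, 12.9 and 11.0 CPM against 19.5, 32.1 and 42.3 CPM (1.33, SE 0.34, adjusted p = 0.0297). The call of Il2ra was lost in 5 of the 6 fits that left out a library, all but the one without CD4NIK replicate 1 (1.08 to 1.61), and per TCR constant count all CD4NIK libraries were below CD4cre (9.80, 11.7 and 17.4 against 5.85, 6.05 and 6.75 per 1000), as for 72.7% of all genes, without passing the test. Ctla4, an inhibitory receptor, rose from 71.2, 33.0 and 28.0 CPM to 203, 274 and 320.0 CPM (2.59, SE 0.38) and was not called on the relative scale. Of 10 tested Th2 genes 0 were called on the relative scale by edgeR's quasi-likelihood test, at a median of -0.44, and 4 were higher and 0 lower on the CPM scale, among them the lineage factor Gata3 (43.5, 46.8 and 16.5 CPM against 97.4, 151 and 153 CPM), whose CPM call was lost without CD4NIK replicate 2 or 3.

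Inhibitory and nectin-family receptors had 10 of 14 tested genes higher and 0 lower on the CPM scale, at a median of 2.64. On the relative scale 3 were higher (Klrg1, and Cd200r1 and Lair1, which were named after their values had been seen) and 1 lower. Klrg1, a receptor of terminally differentiated T cells and NK cells, was listed at 0, 0 and 3 counts in CD4cre and at 54.4, 25.3 and 25.9 CPM in CD4NIK (adjusted p = 0.00191). Klrg1 passed the filter on low counts through the CD4NIK libraries, in which it was high, and its calls are given as a description. It was also the 1 gene of the regulatory T cell list that was higher on the relative scale. The DNAM-1 gene Cd226 rose from 19.7, 14.6 and 13.5 CPM to 134, 136 and 166 CPM (log2 fold change 3.19, SE 0.24), Cd160 from 4.69, 6.59 and 6.13 CPM to 50.2, 60.5 and 50.4 CPM (3.21, SE 0.27), and Pdcd1 (PD-1) from 69.3, 39.7 and 50.6 CPM to 254, 189 and 171 CPM (1.94, SE 0.26). Of these, Cd226, Cd160 and Pdcd1 were not called on the relative scale. Cd226 and Cd160 were called higher there in 0 of 6 fits that left out a library and 1 of 8 other alternatives. Of 18 tested cytotoxic and NK genes 11 were higher and 0 lower on the CPM scale, and 1 was higher and 1 lower on the relative scale, at a median of -0.20. Nkg7, a protein of cytotoxic granules, rose from 68.1, 159 and 109 CPM to 768, 1150.3 and 962 CPM (3.10, SE 0.33) and was not called on the relative scale. Gzmc (granzyme C), the 1 gene of this list higher on the relative scale, gave 0.302, 0 and 0 CPM against 16.2, 24.7 and 19.1 CPM and was called on both scales. Gzmc too passed the filter on low counts through the CD4NIK libraries, and its calls are given as a description. The NK cell markers Ncr1, Klrb1c and Klre1 summed to 3.62 to 21.6 CPM in CD4cre and 14.7 to 84.4 CPM in CD4NIK, with 0 of 2 tested called and 2 at an unadjusted p under 0.05, and CD8 genes summed to 3.15 to 16.3 CPM and 13.5 to 24.8 CPM. Their part in these lists was not tested.

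Ligands of the TNF superfamily, through which T cells signal to cells that use the non-canonical pathway, had 9 of 14 tested genes higher and 0 lower on the CPM scale, at a median of 2.36. Tnfsf11, which encodes RANK ligand, rose from 3.33, 5.67 and 0.502 CPM to 63.6, 58.8 and 82.5 CPM (log2 fold change 4.43, SE 0.70, adjusted p = 0.00773). It was also called per TCR constant count (2.46, 5.14 and 0.796 against 19.1, 11.1 and 13.2 per 1000, log2 fold change 2.36, SE 0.68, adjusted p = 0.00474). Ltb, the lymphotoxin beta chain, rose from 591, 754 and 419 CPM to 981, 2171 and 2272 CPM, a call lost without CD4cre replicate 3 or CD4NIK replicate 2 or 3. Per TCR constant count all CD4NIK libraries were below CD4cre for Ltb, as for 72.7% of all genes, without passing the test.

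All 8 GIMAP GTPases, which serve lymphocyte survival, were higher on the CPM scale, at a median of 2.29. Gimap4 rose from 268, 143 and 49.6 CPM to 1059.6, 1561 and 2985 CPM (log2 fold change 3.61, SE 0.63, adjusted p = 0.0108) and was called on the relative scale too (1.42, SE 0.56, adjusted p = 0.0288), a call lost in 4 of 6 fits that left out a library, without CD4cre replicate 2 or 3 or CD4NIK replicate 2 or 3. Gimap3 rose from 277, 237 and 112 CPM to 1081, 1152 and 1786 CPM. Lcp1, the actin-bundling protein of leukocytes, had the smallest p of its list, with 98.6, 120.4 and 83.3 CPM against 1245, 1114 and 1171 CPM (3.55, SE 0.21, adjusted p = 0.00122). Its relative call (1.29, SE 0.55, adjusted p = 0.0414) was lost in 4 of 6 such fits, without replicate 1 or 2 of either group. Of the 29 tested genes of that list, the actin cytoskeleton of leukocytes, 15 were higher and 0 lower on the CPM scale. On the relative scale 1 (Lcp1) was higher and 10 were lower, at a median of -1.11, beside 68.7% lower among all genes.

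Genes of the cell cycle and DNA replication had 24 of 38 tested genes higher and 1 lower on the CPM scale, at a median of 2.08, and 3 higher and 6 lower on the relative scale. Top2a, the topoisomerase of dividing cells, rose from 5.82, 6.59 and 5.22 CPM to 46.9, 46.4 and 41.2 CPM (log2 fold change 2.93, SE 0.27), and the replication helicase subunit Mcm5 from 7.67, 13 and 6.13 CPM to 69.0, 79.8 and 79.0 CPM (3.09, SE 0.32). Ccnb2 (cyclin B2) rose from 1.97, 1.02 and 1.56 CPM to 54.8, 21.2 and 23.1 CPM and was called on both scales, the relative call being lost without CD4NIK replicate 1. Of 17 tested genes of the BCL2 family, 6 were higher and 1 lower on the CPM scale, at a median of 0.83. On the relative scale 1 was higher and 8 were lower, at a median of -1.12, beside 0.552% and 68.7% of all genes. The 1 higher gene was Pmaip1 (NOXA, which promotes apoptosis), which rose from 4.54, 3.78 and 2.11 CPM to 159, 41.1 and 75.8 CPM (4.72, SE 0.56). Its relative log2 fold change was 2.74 (SE 0.69, adjusted p = 0.00173), with 1.56 to 3.15 over the 6 fits that left out a library.

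The activation marker Cd69 rose from 252, 79.8 and 82.0 CPM to 1329, 678 and 1228 CPM, among 10 of 30 tested immediate early genes that were higher on the CPM scale and 1 that was lower, while on the relative scale 0 were higher and 13 lower, at a median of -1.29. Of 21 heat shock genes 4 were higher and 0 lower on the CPM scale, and 0 were higher and 11 lower on the relative scale, at a median of -1.55, beside 68.7% lower among all genes. Hspa1b, an inducible HSP70 that is also made during tissue digestion, rose from 9067, 3626 and 2229.7 CPM to 13928, 24756 and 29552 CPM (log2 fold change 2.19, SE 0.53, adjusted p = 0.0258), a call lost in 4 of 6 fits that left out a library, those without replicate 2 or 3 of either group. The relative log2 fold change of Hspa1b was 0.00 (SE 0.54). Of 14 tested genes of the glucocorticoid receptor and its targets, 1 (Hsd11b1) was higher and 1 lower on the CPM scale, at a median of 0.14. On the relative scale 1 (again Hsd11b1) was higher and 12 were lower, at a median of -2.19, beside 68.7% lower among all genes. The glucocorticoid-regenerating enzyme Hsd11b1 rose from 27.2, 21.5 and 12 CPM to 228, 218 and 259.6 CPM (3.54, SE 0.32, adjusted p = 0.00181) and was called per TCR constant count (1.37, SE 0.53, adjusted p = 0.0259), a call lost without replicate 1 or 2 of either group.

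Of 19 tested genes of naive and central memory T cells, 7 were higher and 0 lower on the CPM scale, at a median of 1.13, and 7 were lower and 0 higher on the relative scale, at a median of -1.02, beside 68.7% lower among all genes and a median of -2.33. The transcription factor Lef1 rose from 26.0, 30.7 and 10.1 CPM to 186, 139.9 and 313 CPM (log2 fold change 3.26, SE 0.47). Klf2, a transcription factor that controls T cell trafficking, stood at 1326, 401 and 577 CPM against 1117, 974 and 1599 CPM and was not called on the CPM scale. It was lower per TCR constant count (log2 fold change -1.54, SE 0.57, adjusted p = 0.0218), a call lost without CD4cre replicate 1 or CD4NIK replicate 2 or 3. The lymph node homing receptor Ccr7 overlapped between the groups in CPM (380.2, 134 and 81.0 against 337, 319 and 624 CPM) and was not called on either scale.

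Genes that most cells use served as a view of the remaining RNA. Of 85 tested cytosolic ribosomal protein genes 1 was higher and 1 lower, at a median of 0.03, which turned to -0.09 with upper-quartile factors or library size alone. Per TCR constant count 76 of the 85 were lower, at a median of -2.31, beside 68.7% lower among all genes and a median of -2.33. Of the 13 mitochondrially encoded genes of the respiratory chain 0 were called on the CPM scale by edgeR's quasi-likelihood test, with 1 at an unadjusted p under 0.05, and all 13 were lower on the relative scale. mt-Co1, a core subunit of cytochrome c oxidase, stood at 3059, 2972 and 3129 CPM against 4231, 2916 and 3378 CPM. Of 83 nuclear-encoded respiratory genes 0 were higher and 1 lower on the CPM scale, at a median of -0.56. Of these, 70 had a log2 fold change below 0, 50 had an unadjusted p under 0.05, and 58 had all CD4NIK libraries below all CD4cre libraries, beside 22.3% of all genes. Ndufc2 and Cox8a had log2 fold changes of -0.79 each (SE 0.18 and 0.19), past the adjusted p but not the 2-fold limit.

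The largest rises were of genes at or near 0 in CD4cre. Cdca5 (sororin, which holds sister chromatids together), Klra3 (an NK cell receptor) and Susd2 were listed at 0 in all 3 CD4cre libraries. Against a floor of 3 counts in each library they were at least 83.8-fold, 42-fold and 38.8-fold higher, with 16.2, 9.40 and 8.74 CPM, 7.98, 2.28 and 6.93 CPM, and 8.92, 4.27 and 2.70 CPM in CD4NIK. Ckap2l, a protein of the mitotic spindle, and the urea transporter Slc14a1 held at most 3 counts in any CD4cre library and reached 17.4 CPM and 17.8 CPM in CD4NIK. Trim34a, an interferon-induced TRIM protein, gave 0.378, 0.581 and 0.10 CPM against 40.9, 15.1 and 48.6 CPM (log2 fold change 6.59, SE 0.71), and the zinc finger gene Zfp677 gave 0.0378, 0.242 and 0 CPM against 9.80, 7.55 and 5.69 CPM. All of these were called on both scales, but they passed the filter on low counts through the CD4NIK libraries, in which they were high, and the calls are given as a description. Of the 84 genes higher on the relative scale, 39 held at most 3 counts in every CD4cre library and 45 did not. Estimated counts of 0 were also listed in all CD4cre libraries for the widely used genes Ddx1, Timm10 and Pdcl, named after their values had been seen, and an exact 0 can be a failed estimate of the counting.

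The largest falls were of genes of varied function, several of them used by most cells. Srp68, a subunit of the signal recognition particle, stood at 21.8, 32.9 and 22 CPM in CD4cre and 0.111, 1.19 and 0.139 CPM in CD4NIK (log2 fold change -5.65, SE 0.83, adjusted p = 0.00632). Calu, a calcium-binding protein of the secretory pathway, fell from 14.6, 24.2 and 17.0 CPM to 1.05, 2.09 and 2.36 CPM, and Acap3, a GTPase-activating protein, from 70.0, 62.3 and 69.3 CPM to 9.91, 13.8 and 2.77 CPM. The autophagy gene Atg13 fell from 24.3, 43.5 and 55.1 CPM to 4.65, 8.79 and 2.29 CPM, and the transcription factor Tbx5 from 2.83, 6.15 and 7.44 CPM to 0.166, 0.285 and 0.277 CPM. These 5 genes were called in all 6 fits that left out a library. Map3k7, which encodes the kinase TAK1, stood at 2.99, 1.94 and 10.3 CPM against 0.443, 0.427 and 0.555 CPM (-3.40, SE 0.83) and lost its call without CD4cre replicate 3 or CD4NIK replicate 2 or 3. Pcdha6, Ppfibp1, Rab30 and Nploc4, with log2 fold changes of -5.17, -4.21, -3.20 and -3.03, each lost the call in 2 or 3 of these fits. Prr32, among the largest falls on the relative scale, was not called on the CPM scale by edgeR's quasi-likelihood test (-4.39, SE 1.45, adjusted p = 0.0613), but was by DESeq2 (-4.34, adjusted p = 0.00381) and without CD4NIK replicate 3.

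The lower genes of the CPM scale included 17 of 32 tested neuronal and synaptic transcripts (53.1%, beside 6.99% of all genes), with 0 higher, at a median of -1.17. Of the 32 genes, 29 were lower per TCR constant count, beside 68.7% of all genes. Slc17a7, the vesicular glutamate transporter of excitatory neurons, fell from 506, 551 and 667 CPM to 313, 186 and 152 CPM (log2 fold change -1.41, SE 0.28, adjusted p = 0.0165), and the glutamate receptor Gria2 from 441, 509 and 503 CPM to 289, 181 and 169 CPM (-1.18, SE 0.24, adjusted p = 0.0162). The growth cone protein Gap43 fell from 1956, 2162 and 2274 CPM to 1364, 813 and 572 CPM, and Stmn3, a regulator of microtubules, from 2914, 3264 and 3578 CPM to 2138, 1232 and 996 CPM. Within each group the library with the most TCR constant CPM held the least of the neuronal sum, with 11707 CPM in CD4cre replicate 1 and 4168 CPM in CD4NIK replicate 3. The calls of Gap43, Stmn3 and Gria2 were lost in 4 of 6 fits that left out a library, those without replicate 2 or 3 of either group, and that of Slc17a7 in 3, those without CD4cre replicate 3 or CD4NIK replicate 2 or 3.

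**Figure D5:**
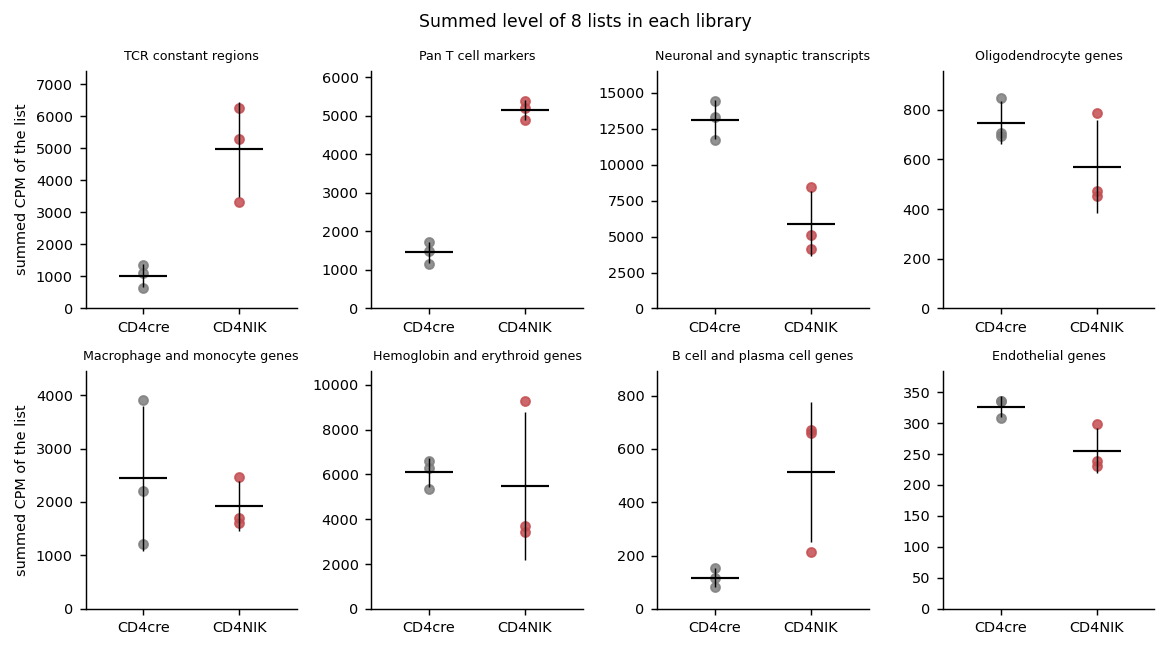
Summed CPM of 8 lists in each library, with the mean and SD of 3 libraries per group. TCR constant and pan T cell genes are higher in all CD4NIK libraries, neuronal transcripts are lower in all CD4NIK libraries (4168 to 8441 CPM against 11707 to 14408 CPM), and the macrophage, hemoglobin and oligodendrocyte lists overlap between the groups. The B cell list is higher (212 to 671 CPM against 81.6 to 153 CPM) and the endothelial list lower (231 to 298 CPM against 308 to 336 CPM) in all CD4NIK libraries.

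Of 11 tested oligodendrocyte genes 2 were lower and 1 higher, beside 6.99% and 10.4% of all genes. Mbp, the myelin basic protein, fell from 351, 406 and 509.6 CPM to 299, 122 and 112 CPM, and this call was lost in 5 of 6 fits that left out a library, all but the one without CD4NIK replicate 1 (log2 fold changes -1.82 to -0.996). Cnp, which cells outside the nervous system also express, rose from 120.1, 68.0 and 67.2 CPM to 271, 249 and 282 CPM. Of 23 tested macrophage and monocyte genes 1 was higher (Ly6c2, which T cells also express, with 1.66, 5.33 and 0.0502 CPM against 13.3, 112 and 126 CPM) and 0 were lower. The CPM call of Ly6c2 was lost without CD4cre replicate 1 or 3 or CD4NIK replicate 2 or 3. The macrophage gene Apoe stood at 1518, 623 and 1155 CPM against 919, 358 and 418 CPM, was not called on the CPM scale and was lower per TCR constant count (-3.10, SE 0.68, adjusted p = 0.000698). On the latter scale 68.7% of all genes were lower, at a median of -2.33. The beta-globin gene Hbb-bs was at 1084, 1332 and 1071 CPM against 587, 912 and 3706 CPM, where CD4NIK replicate 3 alone was above the other libraries. Of 12 tested endothelial genes 1 was higher and 1 lower, which is near the shares of all genes. Pecam1, an adhesion molecule that leukocytes also carry, rose from 16.5, 14.5 and 9.04 CPM to 21.8, 47.7 and 28.7 CPM (1.29, SE 0.38, adjusted p = 0.0458), a call lost in 5 of 6 fits that left out a library, all but the one without CD4NIK replicate 1 (0.94 to 1.55). Plvap, of fenestrated endothelium, fell from 84.8, 108 and 98.4 CPM to 49.5, 28.0 and 39.4 CPM (-1.32, SE 0.25, adjusted p = 0.0147), a call lost without CD4cre replicate 2 or CD4NIK replicate 3, while Cdh5, a defining marker of endothelium, was at 0 counts in all 6 libraries. The endothelial markers Pecam1, Cdh5, Kdr and Emcn summed to 15.9 to 21.3 CPM in CD4cre and 23.3 to 49.6 CPM in CD4NIK. Proximal tubule markers summed to 10.9 to 18.0 CPM in CD4cre and 7.09 to 63.6 CPM in CD4NIK, and the neutrophil markers to at most 3.55 CPM in any library, with S100a9 at 0. The wider list of neutrophil genes summed to 16.6, 29.1 and 11.5 CPM in CD4cre and 23.3, 103 and 115 CPM in CD4NIK. Of its 6 tested genes 0 were called on the CPM scale by edgeR's quasi-likelihood test, with 1 at an unadjusted p under 0.05. The part of these transcripts in the changes of the T cell lists on the CPM scale was not tested beyond the scale relative to TCR constant counts.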

How the data were processed

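RNA was sequenced from CD4+ T cells that had been enriched from mouse kidneys with magnetic beads and sorted by flow cytometry, with a SMARTer library kit. The authors trimmed reads with Trimmomatic and deposited estimated counts per gene from kallisto, without normalization. The submitters' processing notes name mm10 and the study's methods name GRCm39, while the kallisto version and the annotation were not given in the sources used here. The estimates, of which 38.23% to 41.67% per library had a fractional remainder, were rounded. Groups came from the sample titles, which give the libraries as biological replicates.

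Genes were kept by edgeR's filterByExpr and tested in the 6 libraries with edgeR's robust quasi-likelihood test (edgeR 4.0.16, limma 3.58.1, R 4.3.3) on TMM-scaled counts. On the relative scale the summed Trac, Trbc1 and Trbc2 counts were the library size, with no factors. P-values were adjusted by the Benjamini-Hochberg method over all 15209 genes, and calls required an adjusted p under 0.05 and a change over 2-fold. SE is the absolute log2 fold change divided by the square root of the F statistic of the quasi-likelihood test. It is an approximate standard error, and for genes at or near 0 in a group it is no measure of spread. The procedure was tested on simulated data. The depth of 15751632 to 25737046 counts set a floor of 3 counts, or 0.11 to 0.21 CPM, and covers counting error only.

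The lists and the genes in them were chosen with earlier results of these data known. Named genes were the 10 largest rises and falls in CPM among called genes without overlap and with a mean of at least 5 CPM, 5 each on the relative scale, the non-canonical NFkB list, up to 4 members of a list with the smallest p and 2 with the highest mean, and 8 genes the study names. Some genes that this rule picks are not reported here. Symbols were matched to GENCODE M39 (GRCm39) for 14626 of 15209 genes. Alternatives were DESeq2 1.42.0, other scalings, filters and denominators, all 11 libraries in the fit, a replicate block and leaving out each library. Replicate numbers 1 to 3 were shared by the groups, but the deviations of same-numbered libraries from their group means correlated at -0.11 to 0.03, so the fit without the block was kept.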

Additional observations from a re-analysis of the deposited data

How the results depend on the processing

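Of the named genes, 93 were called on the CPM scale, and 66 of these were called in each of the 6 fits that left out a library. The same numbers on the relative scale were 59 and 37. Over those fits the number of higher genes on the CPM scale ran from 614 to 1703 and of lower genes from 60 to 1773, and on the relative scale from 64 to 133 and from 8122 to 10890. The fit of all 11 libraries ended 52 calls of named genes on the CPM scale, those of Trac, Trbc1, Trbc2, Cd4, Cd3e, Lck, Lat, Tbx21 and Cxcr3 among them (adjusted p 0.0633 to 0.379), and the replicate block ended 16. With all 11 libraries in the fit, whose CD4IKK1 libraries held 41 to 11413 TCR constant counts, there were 865 higher and 1264 lower genes on the CPM scale, so that 40.6% of the calls were higher. On the relative scale the same fit gave 0 higher and 0 lower by edgeR's quasi-likelihood test, with 502 genes in either direction at an unadjusted p under 0.05. DESeq2 called 1660 genes lower and upper-quartile factors 1717, on the CPM scale. With pan T cell marker counts in place of the TCR constant counts as denominator 180 genes were higher, and relative to TCR constant counts 39 were higher among genes with at least 10 counts in every library. With the replicate number as a block, 995 genes were higher and 190 lower on the CPM scale, and 65 and 7740 on the relative scale. Family medians were above 0 in 54 of 66 lists on the CPM scale and in 6 on the relative scale.

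Of the 56 named genes not called on the relative scale, 17 changed sign there under at least 1 alternative. Others were called higher there in 1 of the 8 alternatives that left out no library, Cd3e, Irf9, B2m, Nkg7, Oas1a, Cd226 and Cd160 among them. Over the fits without 1 of the libraries, the log2 fold change ran from -0.47 to 0.94 for Tnfrsf12a (0.27 with the block), from -0.15 to 0.36 for Tnfrsf11a (-0.083 with upper-quartile factors and -0.059 with library size alone) and from -0.61 to 1.02 for Hbb-bs, where it was negative without CD4NIK replicate 3. The relative log2 fold change ran in the same fits from -0.65 to 0.81 for Relb (0.33 with the pan T cell denominator and 0.15 with the block), from -1.68 to 3.89 for Cd40 (0.83 with the block), from -0.28 to 0.36 for Ifng and from -0.21 to 0.20 for Tbx21, and Tnfrsf4 was at 0.0079 with the pan T cell denominator. The cause was not tested. Depth limits statements on genes at or under 3 counts in a library.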

Other observations

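Genes were also grouped by the letters before the first digit of their symbol, a grouping chosen after the data had been seen, which gave 183 stems with at least 10 tested genes. The highest median log2 fold changes on the CPM scale were those of the J segments of the TCR beta chain (Trbj, 3.14, 6 of 13 called higher), the interferon-induced Ifi genes (2.76, 8 of 13), the V segments Trav (2.68, 17 of 53) and Trbv (2.29, 10 of 20), and the Irf genes (1.76, 5 of 12), beside 10.4% of all genes. The Irf stem takes in Irf2bp2 beside the interferon regulatory factors. The lowest were those of the clustered protocadherins Pcdhb (-1.61, 3 of 14 called lower) and Pcdha (-1.35, 1 of 10), adhesion proteins of neurons, of the Sox transcription factors (-1.31, 2 of 11), of the Pcdh (-1.14, 5 of 10) and serotonin receptor (Htr, -1.14, 2 of 11) genes and of the voltage-gated sodium channels (Scn, -1.13, 5 of 11), beside 6.99% of all genes. Relative to TCR constant counts 1 Ifi gene and 2 Trav segments were called higher, 0 of the Trbj, Trbv and Irf genes were, and the 6 lowest stems had 8 to 10 genes each called lower, beside 68.7% of all genes.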
